A study of Mus musculus with 36 samples.

Results

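The 8 genes described here encode CC chemokines, the small secreted attractant proteins whose first conserved cysteines lie side by side: Ccl2, Ccl3, Ccl4, Ccl5, Ccl6, Ccl7, Ccl9 and Ccl12. They were taken by gene symbol from the 55421 genes of the deposited count table, each symbol matched 1 mouse Ensembl identifier, and all 8 passed the filter on low counts that left 19478 genes for testing. The RNA came from slices of the hippocampus of 18 mice aged 16 months. WT mice were C57BL/6. T41B mice carried human APP with the London and Swedish mutations behind a Thy1 promoter, an amyloid model of Alzheimer's disease in which the transgene is expressed by neurons. From 13 months of age, mice of both genotypes were given either vehicle (VEH) or BD10-2 (labelled PTX-BD10-2, which partially activates TrkB and TrkC, receptors for neurotrophins) by gavage for 3 months. A right hippocampal slice then received theta-burst stimulation, which was 3 trains of 10 bursts 200 ms apart with 4 stimuli at 100 Hz in each burst, or a sham procedure of equal length. The slice was frozen at once.

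The 32 samples (1 per mouse and slice condition) fell into 8 groups. WT vehicle had 4 sham and 4 stimulated samples, T41B vehicle 4 and 4, WT BD10-2 3 and 3, and T41B BD10-2 5 and 5. All groups share the age, the slicing and a procedure of equal length. No group of unsliced tissue was analysed here, so the sham level is that of a slice and not of the intact hippocampus.

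Chemokines draw leukocytes along a gradient by binding receptors with 7 membrane helices. In the brain, CC chemokines are made mainly by activated microglia, astrocytes and vascular cells, and many of their genes are induced by inflammatory signals through NF-kappaB, with Ccl5 also induced by interferon regulatory factors. CCL2, CCL7 and CCL12 act on the monocyte receptor CCR2. CCL3 and CCL5 act on CCR1, and CCL6 and CCL9 belong to a group of rodent chemokines that act on CCR1 as well.

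All 8 genes lie on chromosome 11 (GRCm38) in the mouse CC chemokine cluster, in a pair of blocks. The first block, on the forward strand, holds Ccl2 (chr11:82035571-82037453), Ccl7 (chr11:82045712-82047525) and Ccl12 (chr11:82101845-82103400). The second holds Ccl5 (chr11:83525778-83530518), Ccl9 (chr11:83572919-83578636), Ccl6 (chr11:83587882-83593087) and Ccl3 (chr11:83647844-83649355) on the reverse strand and Ccl4 (chr11:83662584-83664683) on the forward strand. Ccl2 is overlapped on the other strand by Gm17268 and Ccl6 by E230016K23Rik. The strand setting of the counting is not given in the sources used here, so reads of such partners cannot be told apart. Gm17268 was at 0 in every sample, and the group means of E230016K23Rik ran from 0.0374 to 0.549 CPM (counts scaled by library size, the deposited unit being expected read counts).

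The members are related but not near-identical in sequence, which bears on how safely reads are assigned to each. The stretches below are 60 coding bases each from the GENCODE M21 protein-coding transcript, which in every member cross an exon junction, with the adjacent cysteine codons that define the family in capitals. The pair was found once in frame in each of the 8 coding sequences.
Ccl2: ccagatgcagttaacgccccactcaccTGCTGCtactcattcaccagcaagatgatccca
Ccl7: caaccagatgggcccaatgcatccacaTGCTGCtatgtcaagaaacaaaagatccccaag
Ccl12: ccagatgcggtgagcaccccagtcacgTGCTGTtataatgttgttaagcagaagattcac
Ccl3: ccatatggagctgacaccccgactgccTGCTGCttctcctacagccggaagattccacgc
Ccl4: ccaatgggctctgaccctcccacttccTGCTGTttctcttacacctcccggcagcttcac
Ccl5: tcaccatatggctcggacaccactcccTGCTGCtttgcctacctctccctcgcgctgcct
Ccl9: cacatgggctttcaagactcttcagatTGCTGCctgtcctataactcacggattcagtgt
Ccl6: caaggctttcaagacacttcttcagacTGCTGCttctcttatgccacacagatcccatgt
The capitals are the same 6 bases in 6 members and differ at the last base in Ccl4 and Ccl12. Over whole coding sequences, the closest pairs were Ccl3 with Ccl4 (68.4% identical in a global alignment), Ccl6 with Ccl9 (65.1%) and Ccl7 with Ccl12 (63.5%). The longest run of identical bases between the protein-coding transcripts of any pair of members was 25, for Ccl6 and Ccl9. Ccl6 and Ccl9 have 4 exons, where the other members have 3.

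Library totals ran from 11597555 to 28125842 counts, and samples in which a pair of same-label libraries was added reached 49652855. Thy1, the gene whose promoter drives the transgene, was at 253 to 403 CPM in the WT samples and 1034 to 2506 CPM in the T41B samples, with no overlap. The 2 libraries labelled as the stimulated slice of Mouse1592 (T41B BD10-2) differed in Thy1, at 918 and 1937 CPM, where the other 3 same-label pairs differed at most 1.1-fold. They also differed 2.22-fold in Ccl5 and 1.96-fold in Ccl2, and 1.2-fold in Ccl3 and Ccl4. Other same-label pairs differed as much in single members: that of Mouse1565 (WT BD10-2 sham) 2.22-fold in Ccl2 and 2.87-fold in Ccl7, and that of Mouse1586 (WT BD10-2 stimulated) 2.3-fold in Ccl6. Whether both libraries of Mouse1592 came from the same animal was not tested, and its summed values and its ratios of stimulated to sham slice rest on both. Calls that change without Mouse1592 are given with and without it below. Choroid plexus markers stood apart in some vehicle libraries: their summed level was 13.4 to 28.2 CPM over the BD10-2 groups and WT vehicle sham, and reached 1191 CPM in WT vehicle stimulated, 523 CPM in T41B vehicle sham and 292 CPM in T41B vehicle stimulated samples.

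Per kilobase of transcript, Ccl3, which encodes macrophage inflammatory protein 1-alpha, was the most abundant member in all 8 groups and Ccl4 (macrophage inflammatory protein 1-beta) the next. Ccl3 stood at 20.4 ± 7.5 CPM per kb (SD, n = 4) in WT vehicle sham slices and 951 ± 404 (SD, n = 5) in T41B BD10-2 stimulated slices, the lowest and highest group means. The members changed places with stimulation. Ccl5 was the lowest of the 8 in WT vehicle sham slices, at 0.204 ± 0.118 CPM per kb (SD, n = 4), and rose to place 4 after stimulation, at 23.1 ± 6.96 (SD, n = 4). Ccl12 went the other way, from place 3 in WT vehicle sham slices (2.43 ± 0.393, SD, n = 4) to place 7 after stimulation (2.98 ± 0.406, SD, n = 4). Ccl6 was last in all 4 stimulated groups.

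**Figure D1:**
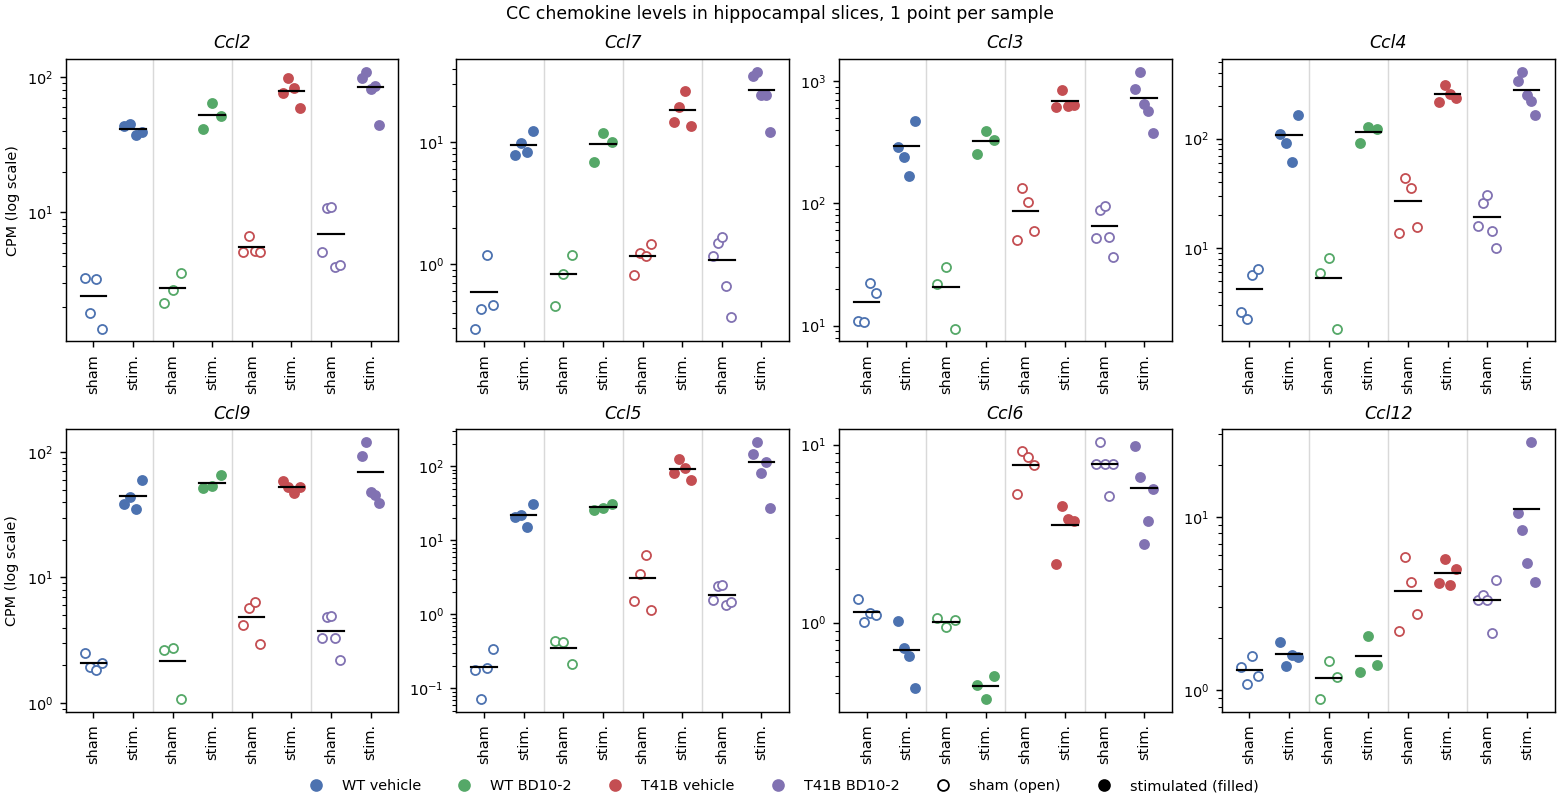
CPM of each chemokine gene (log axis) in each of the 32 samples, by group; open points are sham slices, filled points stimulated slices, and black bars group means. Stimulated points lie above all sham points of their genotype and treatment in the first 6 panels, while Ccl6 separates by genotype and Ccl12 overlaps between sham and stimulated slices except in part of the T41B BD10-2 group.

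Stimulated slices held far more mRNA of Ccl2, Ccl7, Ccl3, Ccl4, Ccl9 and Ccl5 than sham slices, in both genotypes and with vehicle as well as BD10-2. In all 4 comparisons these 6 members passed the test (edgeR's quasi-likelihood test, Benjamini-Hochberg adjusted p under 0.05 over all genes tested), and no stimulated sample overlapped a sham sample of its group. The share of all tested genes without such overlap was not computed, and groups of 3 to 5 samples can separate by chance. The number of members called higher was 6 of 8 in WT vehicle, T41B vehicle and WT BD10-2 and 7 of 8 in T41B BD10-2. Of all tested genes, 8.21%, 11.7%, 6.29% and 13.3% were called higher in these 4 comparisons and 4.1%, 9.83%, 2.58% and 9.52% lower. The median log2 fold change of the 8 members was 4.15, 3.34, 4.13 and 3.71, against -0.01, -0.05, -0.01 and -0.04 for all tested genes. Both slices were sequenced for 14 of the 18 mice.

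Ccl2 encodes monocyte chemoattractant protein 1. In WT vehicle mice it was at 3.26, 1.8, 3.21 and 1.39 CPM in the sham slices and at 43.4, 44.7, 37 and 39.5 CPM in the stimulated slices. In T41B vehicle mice the sham slices had 5.13, 6.76, 5.16 and 5.14 CPM and the stimulated slices 76.3, 97.6, 82.4 and 59.4 CPM. All stimulated values lay far above the sham values, and the T41B values above the WT values, in both states. With BD10-2 the WT sham slices had 2.13, 2.66 and 3.57 CPM and the WT stimulated slices 41.6, 63.8 and 51.6 CPM. The T41B BD10-2 sham slices had 5.08, 10.7, 11, 3.96 and 4.13 CPM and the stimulated slices 99.1, 109, 81.8, 85.8 and 44.4 CPM. Mouse1592 gave the lowest of the stimulated values, and still lay above every sham slice. The log2 fold changes were 4.08 ± 0.33 (SE, adjusted p = 9.29e-10) in WT vehicle, 3.83 ± 0.30 (2.46e-10) in T41B vehicle, 4.28 ± 0.36 (3.12e-09) in WT BD10-2 and 3.58 ± 0.26 (2.02e-11) in T41B BD10-2.

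Ccl7, the neighbour of Ccl2 and another monocyte attractant, was near 1 CPM in sham slices. Its sham values were 0.296, 0.432, 1.19 and 0.462 CPM in WT vehicle and 0.813, 1.23, 1.17 and 1.47 CPM in T41B vehicle, from 5 to 28 reads a sample. The stimulated slices had 7.92, 9.81, 8.3 and 12.4 CPM in WT vehicle and 14.6, 19.6, 26.2 and 13.7 CPM in T41B vehicle. The 2 stimulated groups did not overlap each other. With BD10-2 it ran from 0.453 to 1.19 CPM in WT sham and from 6.89 to 11.9 CPM in WT stimulated slices. In T41B BD10-2 it ran from 0.371 to 1.68 CPM in sham and from 12.1 to 37.9 CPM in stimulated slices. The log2 fold changes were 3.99 ± 0.42, 3.97 ± 0.37, 3.67 ± 0.44 and 4.60 ± 0.34 (SE) in WT vehicle, T41B vehicle, WT BD10-2 and T41B BD10-2, with adjusted p between 2.02e-11 and 1.05e-06.

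Ccl3 in WT vehicle was at 11, 10.7, 22.4 and 18.4 CPM in sham and at 289, 237, 167 and 472 CPM in stimulated slices. In T41B vehicle the sham slices had 50.6, 134, 103 and 59.1 CPM and the stimulated slices 610, 851, 628 and 636 CPM. T41B sham slices lay between the WT sham and the WT stimulated values. In WT BD10-2 the sham slices had 21.9, 30.4 and 9.47 CPM and the stimulated slices 254, 391 and 331 CPM. In T41B BD10-2 the sham slices had 51.7, 89, 94.4, 52.6 and 36.6 CPM and the stimulated slices 865, 1185, 650, 564 and 378 CPM. The last of these, from Mouse1592, was the only T41B stimulated sample within the range of the WT stimulated samples. The log2 fold changes with stimulation were 4.22 ± 0.42 (SE, adjusted p = 2.64e-08) in WT vehicle, 2.97 ± 0.39 (1.31e-06) in T41B vehicle, 3.98 ± 0.47 (9.46e-07) in WT BD10-2 and 3.49 ± 0.36 (8.99e-09) in T41B BD10-2.

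Ccl4, which lies beside Ccl3 and points the opposite way, followed it almost sample by sample. Over the 32 samples the Pearson correlation of their log2(CPM + 1) values was 1.0 to 2 decimals, and 0.98 after each group's mean was removed. In WT vehicle, Ccl4 was at 2.61, 2.23, 5.72 and 6.41 CPM in sham and at 111, 91.1, 61.5 and 164 CPM in stimulated slices. In T41B vehicle it was at 13.8, 43.4, 35.5 and 15.7 CPM in sham and at 216, 308, 255 and 234 CPM in stimulated slices. The ratio of Ccl3 to Ccl4 CPM was 2.86 to 5.15 over the sham slices and 2.31 to 3.04 over the stimulated slices, so the 2 ranges overlapped little. The log2 fold changes of Ccl4 were 4.64 ± 0.46, 3.22 ± 0.40, 4.4 ± 0.51 and 3.84 ± 0.37 (SE) in WT vehicle, T41B vehicle, WT BD10-2 and T41B BD10-2, with adjusted p between 3.58e-09 and 6.39e-07.

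Ccl9 encodes a CCR1 ligand known as macrophage inflammatory protein 1-gamma. It was at 2.49, 1.95, 1.82 and 2.08 CPM in WT vehicle sham and at 38.5, 43.5, 34.9 and 59.8 CPM in WT vehicle stimulated slices. In T41B vehicle it was at 4.19, 5.68, 6.43 and 2.94 CPM in sham and at 58.1, 52.7, 46.9 and 52.8 CPM in stimulated slices. The sham values of the genotypes were separate and the stimulated values were mixed. The BD10-2 groups ran from 1.08 to 2.77 CPM (WT sham), 51.5 to 64.8 (WT stimulated), 2.22 to 4.91 (T41B sham) and 39 to 119 CPM (T41B stimulated). The log2 fold changes were 4.39 ± 0.35, 3.45 ± 0.31, 4.66 ± 0.38 and 4.21 ± 0.29 (SE), with adjusted p between 9.12e-12 and 2.49e-09.

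Ccl5 (RANTES) had the largest ratio of stimulated to sham level among the members in all 4 comparisons. In WT vehicle sham slices it was at 0.178, 0.0721, 0.189 and 0.346 CPM, which is 13 reads over the 4 samples, and in the stimulated slices at 20.8, 21.7, 15 and 31.2 CPM. In T41B vehicle it was at 1.5, 3.46, 6.27 and 1.15 CPM in sham and at 80.3, 124, 95.1 and 65.9 CPM in stimulated slices. The lowest stimulated T41B value was above the highest stimulated WT value. In WT BD10-2 the sham slices had 0.433, 0.418 and 0.217 CPM and the stimulated slices 25.5, 27.7 and 30.9 CPM. In T41B BD10-2 the sham slices had 1.55, 2.44, 2.48, 1.32 and 1.48 CPM and the stimulated slices 147, 211, 80.5, 114 and 27.1 CPM, the last from Mouse1592. The log2 fold changes were 6.72 ± 0.68 (SE, adjusted p = 3.31e-08) in WT vehicle, 4.87 ± 0.46 (4.56e-09) in T41B vehicle, 6.19 ± 0.65 (1.35e-07) in WT BD10-2 and 5.96 ± 0.44 (2.02e-11) in T41B BD10-2. The few sham reads in WT slices limit the precision of the WT values.

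Ccl6, which encodes a CCR1 ligand made by myeloid cells at rest, did not rise with stimulation in any comparison. In WT vehicle it was at 1.36, 1.01, 1.13 and 1.1 CPM in sham and at 1.02, 0.716, 0.648 and 0.43 CPM in stimulated slices. In T41B vehicle it was at 5.31, 9.18, 8.5 and 7.72 CPM in sham and at 2.14, 4.54, 3.8 and 3.71 CPM in stimulated slices. The T41B vehicle groups did not overlap, and there Ccl6 fell by 1.12 ± 0.28 on the log2 scale (SE, adjusted p = 0.00358). In WT BD10-2 it was at 1.06, 0.94 and 1.03 CPM in sham and at 0.446, 0.372 and 0.502 CPM in stimulated slices, with no overlap and a log2 fold change of -1.16 ± 0.42 (SE, adjusted p = 0.0822). The log2 fold change was -0.69 ± 0.36 (0.231) in WT vehicle and -0.44 ± 0.24 (0.196) in T41B BD10-2, where the samples overlapped. With the mouse as a replicate block, which compares the slices of the same animal, Ccl6 was also called lower in WT vehicle (adjusted p = 0.0343) and WT BD10-2 (0.0226). WT values rest on 6 to 54 reads a sample.

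Ccl12 (monocyte chemoattractant protein 5) behaved like neither. It was at 1.36, 1.08, 1.57 and 1.21 CPM in WT vehicle sham and at 1.9, 1.38, 1.6 and 1.54 CPM in WT vehicle stimulated slices. In T41B vehicle it was at 2.19, 5.87, 4.2 and 2.73 CPM in sham and at 4.14, 5.68, 4.02 and 5.01 CPM in stimulated slices. Sham and stimulated values overlapped in both, and the log2 fold changes were 0.29 ± 0.44 (SE, adjusted p = 0.725) and 0.32 ± 0.38 (0.594). It was at 0.886 to 1.46 CPM in WT BD10-2 sham and 1.26 to 2.05 CPM in WT BD10-2 stimulated slices, a log2 fold change of 0.42 ± 0.49 (0.678). In T41B BD10-2 the sham slices had 3.3, 3.53, 3.29, 2.14 and 4.29 CPM and the stimulated slices 10.5, 8.39, 5.42, 26.9 and 4.17 CPM. The value of 26.9 CPM, from Mouse1572, was above all other samples, and that of Mouse1592 lay within the sham range. Here Ccl12 rose by 1.72 ± 0.34 (SE, adjusted p = 2.74e-04) on the log2 scale. The value was 1.08 (0.00216) without Mouse1572, 2.04 (3.74e-05) without Mouse1592 and 1.03 (0.00485) with the replicate block, in which Mouse1572 has no sham slice to be set against.

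**Figure D2:**
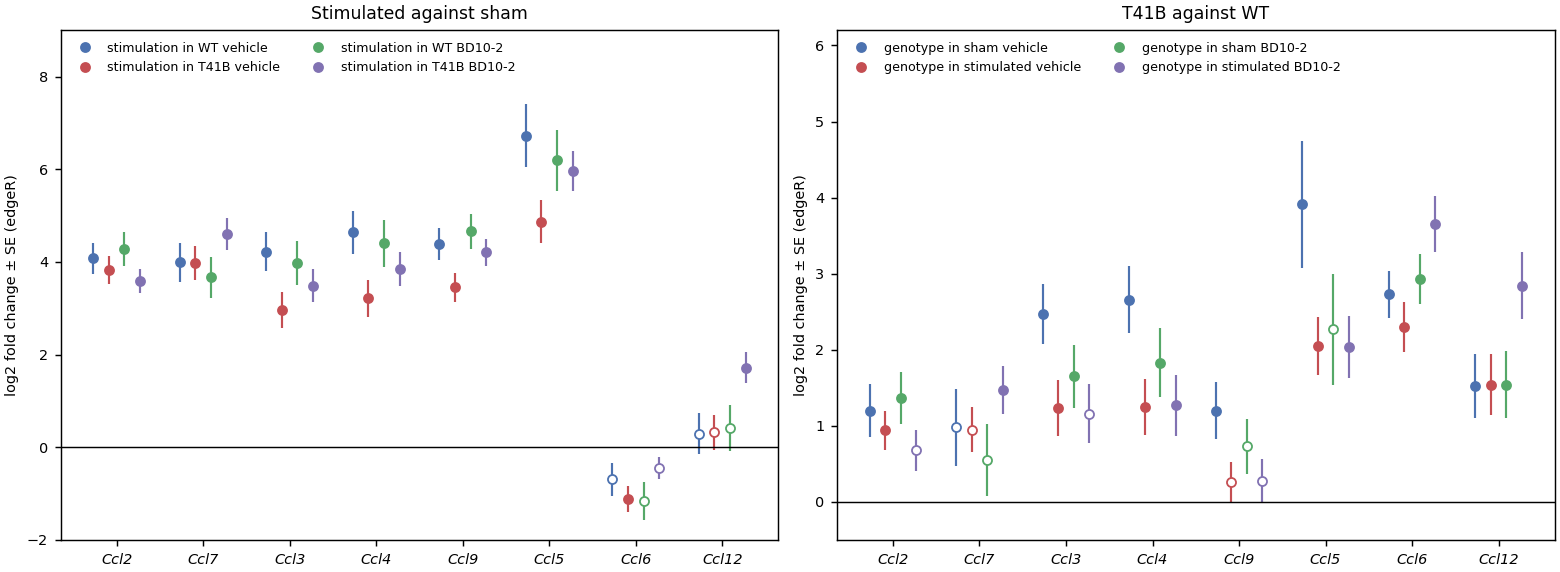
Log2 fold changes with their standard errors for the 8 chemokine genes, stimulated against sham slices at the left and T41B against WT at the right; filled points passed the adjusted p threshold and open points did not. At the left, 6 genes lie between 2.97 and 6.72 in all 4 comparisons and Ccl6 lies below 0; at the right, all 32 points lie above 0 and 23 are filled.

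Slices of the same animal were compared next. Both were sequenced for 14 mice, and Ccl2, Ccl7, Ccl3, Ccl4, Ccl9 and Ccl5 were each higher in the stimulated slice in 14 of 14. The ratio of stimulated to sham CPM had a median of 14.7 for Ccl2 (9.23 to 28.5), 22.5 for Ccl7 (6.95 to 36.8), 11.8 for Ccl3 (6.09 to 26.2), 15.4 for Ccl4 (7.09 to 42.4), 18.5 for Ccl9 (7.3 to 28.8) and 60.6 for Ccl5 (15.2 to 300.0). Ccl6 was lower in the stimulated slice in all 14 mice, with a median ratio of 0.518 (0.392 to 0.961). Ccl12 was higher in 11 of 14, with a median of 1.4 (0.957 to 2.97).

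**Figure D3:**
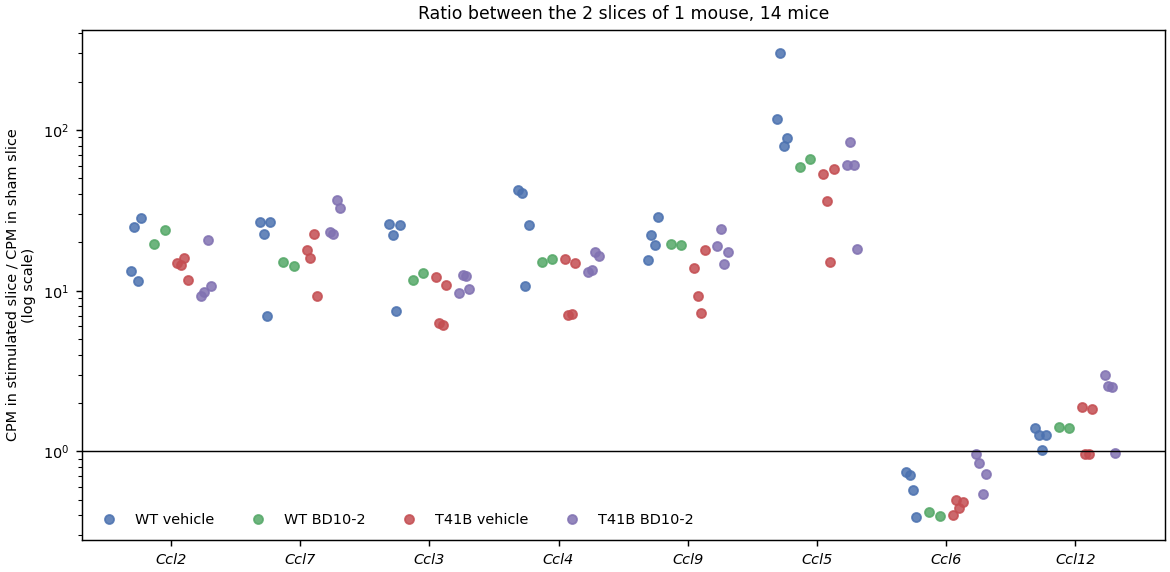
Ratio of CPM in the stimulated slice to CPM in the sham slice (log axis) for each of the 14 mice with both, by gene and coloured by group; the line at 1 marks equal levels. Every mouse lies above 6 for the first 6 genes and below 1 for Ccl6, and the mice spread around the line for Ccl12, from 0.957 to 2.97.

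Promoter windows of 4 members were matched in the RefSeq table (GRCm38.p6), and they are shown because these genes responded in different ways: Ccl9 and Ccl3 rose, Ccl12 was called in 1 comparison, and Ccl6, the neighbour of Ccl9 on the same strand, fell or was not called. Each is the 250 bases before the annotated start, written in the direction of the gene. Capitals mark matches on either strand to 5 motifs: the TATA box (TATAAA), AP-1 (TGANTCA), PU.1 (GAGGAA), NF-kappaB (GGG, any 5 bases, then CC) and the interferon-stimulated response element (GAAA, any 2 bases, then GAAA).
Ccl9 (chr11:83578637-83578886, reverse strand): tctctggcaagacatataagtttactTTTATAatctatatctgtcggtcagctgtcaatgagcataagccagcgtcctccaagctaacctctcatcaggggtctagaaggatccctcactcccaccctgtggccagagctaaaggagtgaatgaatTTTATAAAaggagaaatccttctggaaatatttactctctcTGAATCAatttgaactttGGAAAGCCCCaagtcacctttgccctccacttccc
Ccl6 (chr11:83593088-83593337, reverse strand): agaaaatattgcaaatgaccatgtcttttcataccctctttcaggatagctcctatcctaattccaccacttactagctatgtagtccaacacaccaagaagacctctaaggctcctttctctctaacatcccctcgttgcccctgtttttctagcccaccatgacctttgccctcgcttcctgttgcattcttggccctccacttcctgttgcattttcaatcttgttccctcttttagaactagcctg
Ccl3 (chr11:83649379-83649628, reverse strand): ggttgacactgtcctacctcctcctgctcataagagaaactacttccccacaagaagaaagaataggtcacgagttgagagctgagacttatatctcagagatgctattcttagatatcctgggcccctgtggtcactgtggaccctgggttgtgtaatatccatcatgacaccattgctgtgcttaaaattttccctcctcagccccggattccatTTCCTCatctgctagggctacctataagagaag
Ccl12 (chr11:82101595-82101844, forward strand): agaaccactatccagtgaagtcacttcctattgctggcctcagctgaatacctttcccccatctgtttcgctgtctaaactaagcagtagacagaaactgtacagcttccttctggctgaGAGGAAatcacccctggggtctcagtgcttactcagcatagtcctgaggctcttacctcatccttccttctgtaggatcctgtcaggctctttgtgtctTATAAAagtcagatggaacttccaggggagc
The Ccl9 window held matches to AP-1, whose first base lies 53 bases before the start, to NF-kappaB (35 bases, on the opposite strand) and to the TATA box on both strands. The TATA box matches overlap each other at 94 and 92 bases, with another match 224 bases before the start. The Ccl6 window held none of the 5 letter patterns. The Ccl12 window held a TATA box match 31 bases before the start and a PU.1 match at 130, and the Ccl3 window a PU.1 match at 33 on the opposite strand. Over the 32851 promoter windows of this length in the table, 12.4% held the TATA box letters, 6.75% AP-1, 23.3% PU.1, 45.8% NF-kappaB and 2.98% the interferon element. A match is only a run of letters, and its absence says that the letters are not in this window. The windows of Ccl9 and Ccl6 were 46.8% identical in a global alignment with a longest shared run of 13 bases, against 45.3% to 52.0% and runs of 7 to 9 bases for the other pairs.

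T41B slices held more chemokine mRNA than WT slices, in sham as well as in stimulated slices. All 32 log2 fold changes (8 members in 4 comparisons of T41B with WT) were above 0 and 23 passed the test. The number called higher was 7 of 8 in vehicle sham, 6 in vehicle stimulated, 5 in BD10-2 sham and 5 in BD10-2 stimulated slices, and none was called lower. Of all tested genes, 5%, 4.74%, 4.31% and 8.19% were called higher and 1.24%, 1.05%, 1.14% and 2.36% lower. The median log2 fold change of the members was 2, 1.24, 1.6 and 1.37, against 0, -0.03, 0.01 and -0.02 over all genes. Sham and stimulated slices of a genotype came largely from the same mice, so the 4 comparisons are not independent of each other.

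Ccl6 had the firmest difference between the genotypes. Its highest WT value in any group, 1.36 CPM, was below its lowest T41B value, 2.14 CPM. The log2 fold change was 2.73 ± 0.31 (SE, adjusted p = 7.45e-07) in vehicle sham, 2.30 ± 0.33 (3.15e-05) in vehicle stimulated, 2.93 ± 0.33 (1.09e-06) in BD10-2 sham and 3.65 ± 0.37 (1.11e-07) in BD10-2 stimulated slices. Within batches, where the labels put both genotypes in the same batch, T41B was higher than WT in 7 of 7 comparisons of sham or stimulated slices, by 3.29 to 8.62 times. These 7 comparisons, the same for every member, came from batches A, C, D and I. Sham and stimulated slices there came largely from the same mice, and most comparisons set 1 T41B mouse against 1 WT mouse. The 7 are therefore not independent of each other. The call remained in every alternative fit and with any mouse left out.

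Ccl12 was also higher in T41B in all 4 comparisons, with log2 fold changes of 1.52 ± 0.42 (SE, adjusted p = 0.0265), 1.54 ± 0.40 (0.0169), 1.54 ± 0.44 (0.0338) and 2.84 ± 0.44 (3.60e-05). No WT sample reached a T41B sample of the same slice condition and treatment. It was higher in T41B in 7 of 7 within-batch comparisons, by 1.39 to 9.8 times. The highest ratio includes the 26.9 CPM of Mouse1572, and the next was 3.6. Without Mouse1572 the log2 fold change in BD10-2 stimulated slices was 2.2 (adjusted p = 1.93e-05). With batch as a covariate the first 3 calls were lost, at log2 fold changes of 1.17 (adjusted p = 0.465), 1.26 (0.175) and 1.74 (0.0519). The first 3 calls were also lost with the mouse as a random term, at log2 fold changes of 1.43 (adjusted p = 0.166), 1.52 (0.0907) and 1.73 (0.066).

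Of the 6 members that stimulation raised, Ccl5, Ccl3 and Ccl4 are given first. For Ccl5 the log2 fold change of T41B over WT was 3.91 ± 0.83 (SE, adjusted p = 0.00306) in vehicle sham and 2.05 ± 0.38 (6.55e-04) in vehicle stimulated slices. With BD10-2 it was 2.27 ± 0.73 (0.0646) and 2.04 ± 0.41 (7.98e-04). The vehicle sham call was lost with the mouse as a random term (3.62, adjusted p = 0.257), and the BD10-2 sham value was called without Mouse1592 (2.33, 0.0166) and by DESeq2 (2.35, 0.00118). Ccl3 was 2.47 ± 0.40 (1.18e-04), 1.23 ± 0.37 (0.0407), 1.65 ± 0.41 (0.0125) and 1.16 ± 0.39 (0.0519), and Ccl4 was 2.66 ± 0.44 (1.95e-04), 1.25 ± 0.37 (0.042), 1.83 ± 0.45 (0.0114) and 1.27 ± 0.40 (0.0356), in the same order. The vehicle stimulated calls of Ccl3 and Ccl4 were lost with batch as a covariate, at 0.69 (adjusted p = 0.179) and 0.66 (0.222), and each in 8 of the 18 fits that left out a mouse. In BD10-2 stimulated slices Ccl3 was called in 7 of the 18 fits that left out a mouse (1.33, adjusted p = 0.0152 without Mouse1592). It was also called in 7 of 8 alternatives that kept all mice, and the call of Ccl4 was lost in 6 of the 18 fits that left out a mouse. Ccl3, Ccl4 and Ccl5 were higher in T41B in 7 of 7 within-batch comparisons, at medians of 2.26, 2.4 and 3.65 times.

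Ccl2 was called higher in T41B in vehicle sham (log2 fold change 1.2 ± 0.35, SE, adjusted p = 0.034), vehicle stimulated (0.94 ± 0.26, 0.0248) and BD10-2 sham slices (1.37 ± 0.34, 0.0114), and not in BD10-2 stimulated slices (0.68 ± 0.27, 0.111). The vehicle sham call was lost with batch as a covariate (adjusted p = 0.0629), with library totals (0.051) and with the mouse as a random term (0.125), and the BD10-2 sham call with the random term (0.0603). Among the 18 fits that left out a mouse, 5 lost the vehicle sham call, 5 the vehicle stimulated call and 2 the BD10-2 sham call. Without Mouse1592 Ccl2 was called in BD10-2 stimulated slices (0.85, 0.0144). Ccl7 was called in BD10-2 stimulated slices only (1.47 ± 0.32, 0.00209), with 0.98 ± 0.51 (0.268) in vehicle sham, 0.95 ± 0.30 (0.0596) in vehicle stimulated and 0.55 ± 0.47 (0.564) in BD10-2 sham slices. In vehicle stimulated slices Ccl7 was also called in 4 of the 18 fits that left out a mouse (0.96, adjusted p = 0.0131 without Mouse1592). The same call was gained in 3 of 8 alternatives that kept all mice. Ccl9 was called in vehicle sham slices only (1.2 ± 0.37, 0.0473). That call was lost with the mouse as a random term (0.252), with library totals (0.0511), with the deeper library of each pair (0.0516) and in 10 of the 18 fits that left out a mouse. Its stimulated groups lay at 0.26 ± 0.27 (0.706) with vehicle and 0.28 ± 0.28 (0.598) with BD10-2. Ccl7 and Ccl9 were higher in T41B in 5 of 7 within-batch comparisons each.

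How many members passed in the comparison of genotypes depended on single mice. In vehicle sham slices the count was 4 without Mouse1509, Mouse1513, Mouse1524, Mouse1551 or Mouse1553. In vehicle stimulated slices it was 2 without Mouse1513, Mouse1522 or Mouse1551 and 3 without Mouse1509 or Mouse1553. In BD10-2 sham slices it was 1 without Mouse1565, 2 without Mouse1590 and 3 without Mouse1571. Ccl6 was the 1 member left without Mouse1565. In BD10-2 stimulated slices the count ran from 4 to 7 over the mice left out and was highest without Mouse1592.

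Bulk slices do not separate fewer cells of a type from less RNA per cell. Markers of homeostatic microglia moved with stimulation in the direction opposite to that of the 6 inducible chemokines: 8, 8, 7 and 8 of the 10 markers were called lower in WT vehicle, T41B vehicle, WT BD10-2 and T41B BD10-2 and none higher. Among them Cx3cr1, the fractalkine receptor, fell by 2.16, 2.53, 2.46 and 2.29 on the log2 scale. The summed level of the 10 markers was 181 to 250 CPM over the WT sham slices, 91.5 to 124 CPM over the WT stimulated slices, 359 to 606 CPM over the T41B sham slices and 175 to 372 CPM over the T41B stimulated slices. In T41B, 8, 4, 7 and 8 of the 10 markers were called higher than in WT (vehicle sham, vehicle stimulated, BD10-2 sham, BD10-2 stimulated). None was at 0.

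Ccl6 was the member that followed these markers. The Pearson correlation of its log2(CPM + 1) with that of the summed markers was 0.88 over the 32 samples and 0.67 after group means were removed, where slices share mice and batches. For Ccl3 these were -0.26 and 0.41, and for Ccl12 0.36 and 0.05. Set against the same sum, Ccl6 was at 0.563 ± 0.112 CPM per 100 CPM of markers (SD, n = 4) in WT vehicle sham and 0.705 ± 0.321 (SD, n = 4) in WT vehicle stimulated slices. In T41B vehicle it was at 1.66 ± 0.206 (SD, n = 4) and 1.74 ± 0.352 (SD, n = 4). On this scale the vehicle sham and stimulated means differed by less than the SD of the stimulated group, and the genotypes stayed apart. In T41B BD10-2 it was at 1.5 ± 0.193 (SD, n = 5) and 2.03 ± 0.517 (SD, n = 5). Ccl3 rose from 7.7 ± 3.4 to 276 ± 96.9 CPM per 100 CPM of markers in WT vehicle (SD, n = 4 each), so its increase was larger on this scale than in CPM. In vehicle stimulated slices the WT and T41B means on this scale were 40.3 and 39.2 for Ccl2, 9.18 and 9.27 for Ccl7, and 42.2 and 26.5 for Ccl9. They were 276 and 337 for Ccl3, 102 and 125 for Ccl4, and 21.2 and 45.1 for Ccl5. Ccl12 went from 0.644 in sham to 1.56 in stimulated slices in WT vehicle, and from 0.784 to 2.33 in T41B vehicle. The part of microglial number or state in these results was not tested.

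Markers of blood leukocytes differed in level. Of 7 monocyte markers the summed level was 0 to 0.474 CPM over the WT samples and 0.159 to 1.98 CPM over the T41B samples, Gm9733 had no read in any sample, and Ccr2 and Ly6c2 reached at most 0.448 and 0.719 CPM. The most abundant of them, Ms4a4c, was called higher with stimulation in T41B BD10-2 (log2 fold change 2.87, adjusted p = 0.00452) and higher in T41B in BD10-2 stimulated slices (2.96, 0.0231). Of 7 neutrophil markers, Csf3r, which microglia also express, reached 20.4 CPM in a sham slice, fell in all 4 stimulation comparisons and was higher in T41B in all 4; the other 6, S100a8 the highest of them, reached at most 0.299 CPM. The 8 T cell markers summed to 1.13 to 4.74 CPM, led by Lck and Trac, and 1 was called lower with stimulation in T41B vehicle (Trac) and 1 higher in T41B BD10-2 (Lck). Border macrophage markers, led by Mrc1 and F13a1, summed to 0.553 to 6.85 CPM, with 1 called with stimulation (Pf4, in T41B BD10-2) and 1 with genotype (F13a1, in BD10-2 stimulated slices).

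Markers of other resident cells moved in part. Of the astrocyte markers, led by Slc1a3 and Gfap, 3 of 5 were called higher with stimulation in each comparison except WT BD10-2, where none was, and 2, 2, 2 and 5 of 5 were called higher in T41B (vehicle sham, vehicle stimulated, BD10-2 sham, BD10-2 stimulated), with Gfap higher by 1.64 to 2.18 on the log2 scale. Of the endothelial markers, led by Flt1 and Cdh5, 1, 2, 1 and 2 of 5 were called higher with stimulation (WT vehicle, T41B vehicle, WT BD10-2, T41B BD10-2) and none lower. The medians of the 5 were -0.06, 0.71, 0.33 and 0.4 on the log2 scale. Cdh5 was higher in all 4 comparisons, by 1.54 to 2.62. No endothelial marker was called between genotypes. Hippocampal neuron markers, led by Snap25 and Rbfox3, had 1 call with stimulation (Snap25 lower in T41B BD10-2) and 1 with genotype (Snap25 lower in T41B vehicle stimulated slices). Of the choroid plexus markers, led by Ttr and Kl, all 5 were higher with stimulation in WT vehicle, the group with the libraries that stood apart. Kcne2 was higher in all 4 comparisons, and in the other 3 it was the only 1 of the 5 called. The medians of the 5 there were -0.74 (T41B vehicle), -0.5 (WT BD10-2) and -0.03 (T41B BD10-2) on the log2 scale. Between genotypes Ttr was called higher in T41B in vehicle sham slices and Folr1 lower in vehicle stimulated slices. In WT BD10-2, where the choroid plexus sum was 18.4 to 21.3 CPM in every sample, the 6 inducible chemokines rose by 3.67 to 6.19 on the log2 scale, against 3.99 to 6.72 in WT vehicle. The part of the other cell types in these results was not tested.

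BD10-2 was not associated with a called change of any member. Against vehicle, 0 of the 8 passed the test in WT sham, WT stimulated, T41B sham or T41B stimulated slices, and 0% of all tested genes did in each of the 4 comparisons. At an unadjusted p under 0.05 the counts of members were 0, 0, 0 and 2 and those of all genes 374, 1093, 431 and 759. DESeq2 called 0 members in each as well. The pair of members in T41B stimulated slices was Ccl12, at a log2 fold change of 1.22 ± 0.35 (SE, adjusted p = 0.812 by edgeR), and Ccl6, at 0.70 ± 0.27 (adjusted p = 1.0). Both sets of samples overlapped, and the 26.9 CPM of Mouse1572 was part of the first. Over the other members in T41B stimulated slices the log2 fold changes ran from 0.09 ± 0.24 (Ccl2) to 0.53 ± 0.28 (Ccl7). In T41B sham slices they ran from -0.76 ± 0.50 (Ccl5) to 0.33 ± 0.29 (Ccl2), in WT sham slices from -0.19 ± 0.48 (Ccl12) to 0.88 ± 1.21 (Ccl5), and in WT stimulated slices from -0.66 ± 0.42 (Ccl6) to 0.36 ± 0.29 (Ccl9). The SE sets what could have been seen, and it is widest for Ccl5 in WT sham slices. Each of the 8 batches held 1 treatment, so treatment and batch cannot be told apart.

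The response to stimulation was set against genotype and treatment with interaction terms, and 0 of the 8 members passed in any of the 4, as did 0% of all tested genes. In vehicle mice the response of T41B minus that of WT was -1.42 ± 0.57 for Ccl4 (SE), -1.25 ± 0.53 for Ccl3 and -0.95 ± 0.46 for Ccl9 on the log2 scale. These were the 3 members under an unadjusted p of 0.05, with adjusted p of 0.521, 0.529 and 0.572 by edgeR. In BD10-2 mice the same terms were -0.56 ± 0.57, -0.49 ± 0.54 and -0.44 ± 0.45. Ccl12 was the 1 member under that p for genotype in BD10-2 mice (1.3 ± 0.60) and the 1 for treatment in T41B mice (1.40 ± 0.50), with an adjusted p of 1.0 by edgeR in both. For treatment in WT mice there was none. Over all genes the counts at an unadjusted p under 0.05 were 1683 and 846 for genotype (vehicle, BD10-2) and 337 and 526 for treatment (WT, T41B), and DESeq2 called 0 members in each. An unequal response was therefore not detected, and an equal one was not shown.

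Among 13 other CC ligands 6 were abundant enough to test. Ccl22, a dendritic cell and macrophage product that binds CCR4, rose with stimulation in all 4 comparisons, by 2.32, 3.42, 2.78 and 4.95 on the log2 scale in WT vehicle, T41B vehicle, WT BD10-2 and T41B BD10-2. Its group means were 0.271 to 0.418 CPM in sham and 1.37 to 8.49 CPM in stimulated slices, and it was called higher in T41B in both stimulated comparisons (1.76 and 2.24). Ccl11 (eotaxin), which lies between Ccl7 and Ccl12, rose in all 4 comparisons by 2.62 to 4.24, from means of at most 0.0756 CPM. At such low sham levels Ccl22 and Ccl11 passed the filter on low counts largely through stimulated slices, which favoured a rise in advance. Ccl17, the other CCR4 ligand, was called in the WT comparisons alone (1.78 and 2.16), with 1.36 (adjusted p = 0.0567) and 1.28 (0.0608) in T41B by edgeR. The constitutive ligands Ccl25 and Ccl28 were called in no comparison, and Ccl27a was called lower in T41B BD10-2 (-0.32).

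Among the CC receptors that passed the filter on low counts, Ccr7, the receptor of Ccl19 and Ccl21, rose with stimulation in all 4 comparisons by 6.56, 5.78, 5.33 and 6.13 on the log2 scale, from means of 0.018 to 0.264 CPM to 2.06 to 18.6 CPM. At these sham levels Ccr7 too passed the filter largely through stimulated slices. In stimulated slices it was higher in T41B by 2.81 (vehicle) and 2.28 (BD10-2). Ccr1, the receptor of Ccl3, Ccl5, Ccl6 and Ccl9, was called higher with stimulation in WT vehicle (2.28) and T41B BD10-2 (1.51), at 0.4 (adjusted p = 0.516) in T41B vehicle and 1.52 (0.0711) in WT BD10-2 by edgeR. It was higher in T41B in vehicle sham (2.06) and BD10-2 stimulated slices (1.22). Under the filter, the group means of Ccr2, Ccr3, Ccr4, Ccr6, Ccr8, Ccr9 and Ccr10 were at most 0.433 CPM, and Ccr2, the receptor of Ccl2, Ccl7 and Ccl12, was at most 0.209 CPM.

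Of the 4 atypical receptors, Ccrl2 was called higher in all 4 stimulation and all 4 genotype comparisons. It rose with stimulation by 1.68 and 1.66 on the log2 scale in WT (vehicle, BD10-2) and by 3.09 and 3.24 in T41B, and its mean went from 8.48 to 72.5 CPM in T41B vehicle and from 3.15 to 10.1 CPM in WT vehicle. Ackr1, which binds inflammatory chemokines on vessels, rose in T41B vehicle (0.80) and T41B BD10-2 (0.65) and not by call in WT (0.03 and 0.17). Ackr2 was called in no comparison, and Ackr4 was under the filter at a mean of at most 0.127 CPM.

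Of 11 genes of the NF-kappaB pathway, 8, 9, 8 and 10 were called higher with stimulation (WT vehicle, T41B vehicle, WT BD10-2, T41B BD10-2) and none lower. The largest changes were those of the inhibitor Tnfaip3 (2.47 at most), the co-regulator Bcl3 (2.31), Nfkb2 (2.04) and Nfkb1 (1.6), and Rel was called in none. Between genotypes 11, 10, 11 and 11 were called higher in T41B, with Bcl3 (1.85), Tnfaip3 (1.40), Nfkbie (1.37) and Nfkb2 (1.26) the largest. All 10 interferon-induced genes of the list rose with stimulation in all 4 comparisons, led by Rsad2 (6.92 at most), Oasl1 (6.58), Isg15 (5.73) and Ifit1 (5.23). Of these 10, 7, 10, 3 and 10 were called higher in T41B, led by Oasl1 (3.12), Isg15 (3.03), Rsad2 (2.94) and Usp18 (2.74). The medians of the interferon list with stimulation were 3.99, 3.89, 3.94 and 4.64.

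For each member the 3 most similar genes were found among 16184 genes of mean at least 1 CPM, by Pearson correlation of log2(CPM + 1) over the 32 samples, which share mice, batches and the large difference between sham and stimulated slices. Ccl2 was most like the neutrophil attractants Cxcl1 and Cxcl2 (0.987 each) and Fas (0.981). Ccl7 was most like Has2 (0.985), Il1rn (0.984) and Fas (0.982), and Ccl9 like Cxcl2 (0.98), Edn1 (0.979) and Igf2bp2 (0.975). Ccl3 and Ccl4 had the same 3 genes, Slfn2, Tnfrsf12a and Il1a, at 0.98 to 0.985. Ccl5 was most like the interferon-induced genes Oasl1 (0.994) and Isg15 (0.991), then Il1rn (0.99). Ccl6 was most like Ctsd (0.978), Ly86 (0.967) and Hexa (0.965), of which Ctsd and Hexa encode lysosomal enzymes. Ccl12 had the lowest values, with Irf8 (0.938), a transcription factor of myeloid cells, Cytip (0.928) and Tspo (0.91).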

How the data were processed

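The authors deposited RSEM expected counts (estimated read counts per gene, not scaled between libraries) for 36 libraries, prepared by a stranded kit after removal of ribosomal RNA (200 ng input), per the labels' protocols. The submitters' processing notes name cutadapt 1.8.1, STAR 2.7.6a, RSEM 1.3.1, featureCounts 1.6, SAMtools 1.11 and the build GRCm38.p6. The annotation release and strand setting are not given in the sources used here. RSEM divides reads between similar transcripts. Counts were rounded to whole numbers. Gene symbols matched 55154 of 55421 identifiers.

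For 4 combinations of mouse and slice condition, a pair of libraries with the same labels was added, which left 32 samples from 18 mice. Each mouse counts as 1 replicate of a group. Genes were kept by filterByExpr (minimum count 10), scaled by TMM (factors 0.91 to 1.063) and tested with edgeR 4.0.16 (R 4.3.3) in a single quasi-likelihood fit of 8 groups, with Benjamini-Hochberg adjustment over the 19478 genes and a threshold of 0.05. An SE is the log2 fold change divided by the square root of F. There were 16 comparisons. CPM uses TMM-scaled library sizes, and CPM per kb the exon union of GENCODE M21. The script was tested on simulated data.

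The slices of a mouse are paired through the mouse labels. The deviations of 14 same-mouse pairs from their group means correlated at a mean r of 0.29 (lowest 0.0532), against -0.0782 for 52 pairs of different mice.

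Alternatives were DESeq2 1.42.0, RLE size factors, library totals, no filter, the groups compared alone, the deeper library of each same-label pair, each mouse left out, batch as a covariate, the mouse as a replicate block and, for genotype and treatment, the mouse as a random term (limma 3.58.1).

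The genes and lists were chosen with earlier results of these data known. The genes named are all 8 members; up to 4 called genes with the largest change from each pathway list; the CC and atypical receptors; the 3 genes most like each member; and the 2 most abundant genes and any gene at 0 of each marker list. Other marker genes named (Pf4 and Kcne2 among them), and Rel, were chosen after their values were seen. Promoter motifs were also chosen with the results known, and sequences come from RefSeq (promoters, GRCm38.p6) and GENCODE M21 (transcripts). Some genes that this rule names are not reported here.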

Additional observations from a re-analysis of the deposited data

Results flagged for a closer look

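In groups of 4 or 5 samples, 48 combinations of member and group were examined for a sample far from the others on the log2(CPM + 1) scale, and 2 were found, where chance alone gives about 1 in 20. Both were Mouse1551, a T41B vehicle mouse. Ccl2 in its sham slice was at 6.76 CPM, against 5.13 to 5.16 CPM in the other 3 mice of the group. Ccl3 in its stimulated slice was at 851 CPM, against 610 to 636 CPM in the other 3. In both groups the other 3 values are very close to each other, so the gap is large only beside a small range. Ccl2 and Ccl3 rose with stimulation in T41B vehicle with this mouse left out as well. The genotype calls of these groups were lost without it, at a log2 fold change of 1.09 (adjusted p = 0.13 by edgeR) for Ccl2 in vehicle sham and 1.1 (0.121) for Ccl3 in vehicle stimulated slices. These calls were not lost with this mouse alone: that of Ccl2 was also lost when each of 4 other mice was left out in turn, and that of Ccl3 for each of 7 others.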

How the results depend on the processing

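The calls of Ccl2, Ccl3, Ccl4, Ccl5, Ccl7 and Ccl9 with stimulation and of Ccl6 with genotype remained under all alternatives run, and no called member changed sign under any. With stimulation the number of members called was 6 to 7 in WT vehicle and WT BD10-2 and 7 in both T41B comparisons under every alternative. With the replicate block (the paired analysis of slices of the same mouse) it was 7 in all 4 comparisons, and 0 in the 4 interactions. For genotype, leaving out a mouse gave 4 to 7 members in vehicle sham, 2 to 7 in vehicle stimulated, 1 to 6 in BD10-2 sham and 4 to 7 in BD10-2 stimulated slices. With the mouse as a random term in limma voom (consensus correlation 0.339) the count was 3 in vehicle sham and 3 in BD10-2 sham slices. With batch as a covariate it was 3 in vehicle stimulated slices. Of 832 single-member genotype values under alternatives, 78 lost and 27 gained the call; the cause was not tested. For treatment and interactions the count was 0 under every alternative, and batch could not be a covariate for treatment because each batch holds 1 treatment. Fitting WT sham slices alone gave no value for Ccl5 with treatment, since it fell under the filter on low counts. Depth limits Ccl5 (1 to 22 reads in a WT sham slice), Ccl7 (5 to 23), Ccl12 (15 to 45) and Ccl6 (14 to 54).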
